A study of Mus musculus with 12 samples.

Results

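The genes described here are Pou5f1 and 9 other genes associated with pluripotency, the capacity of early embryo cells to form every tissue: Nr0b1, Gdf3, Utf1, Fgf4, Sall4, Tdh, Fbxo15, Esrrb and Dppa4. A gene was taken where a probe set, the group of short probes summarised into 1 value on the array, carried its symbol and no other in the authors' annotation. This gave 11 probe sets for the 10 genes, of 28815 probe sets on the array and 17103 genes tested. The genes were picked with their values on all 12 arrays known, so their levels and differences are given as a description, with standard errors and no test. RNA was hybridised to Affymetrix Mouse Gene 1.0 ST arrays in 4 groups of 3 arrays: mouse induced neural stem cells in a first and a second set (miNSC1 and miNSC2, called iNSC1 and iNSC2), neural stem cells of the wild type (NSC), and embryonic fibroblasts of the wild type (MEF). The iNSC and NSC cultures grew in NSC basal medium to which heparin (2 µg/ml) and the growth factors FGF-2 and EGF (each at 20 ng/ml) were added, and the MEF cultures in DMEM with 10% FBS, so medium and cell label cannot be told apart in any comparison with MEF. How the iNSC were induced, what separates the 2 sets, and the age of the source animals are left unsaid by the labels.

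In the early embryo and in embryonic stem cells, a core of transcription factors built around Pou5f1 (Oct4), Sox2 and Nanog holds its own genes and each other active and keeps genes of later lineages silent. Around this core stand auxiliary factors such as Esrrb, Sall4 and Nr0b1, secreted signals such as Fgf4 and Gdf3, and enzymes and chromatin proteins that mark the state. Neural stem cells share Sox2 with this network but are not known for Pou5f1, which is silenced as embryonic cells differentiate.

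The promoters of 4 genes that were high in at least 1 group are shown first: Pou5f1 and Fgf4, high in every group but MEF, Utf1, high in iNSC, and Nr0b1, highest in NSC. Windows of 300 bases, from 250 before to 50 after an annotated start, came from RefSeq on GRCm38.p6 and covered 5 of the 10 genes with 7 windows. All are on the plus strand: Pou5f1 at chr17:35505782-35506081, Nr0b1 at chrX:86191525-86191824, Utf1 at chr7:139943606-139943905 and Fgf4 at chr7:144861136-144861435. Capitals mark matches to any of 5 motifs searched on both strands: the octamer ATGCAAAT bound by POU factors, the SOX site CATTGT, the extended nuclear receptor site TCAAGGTCA, the GC box GGGCGG and the TATA box TATAAA.
Pou5f1: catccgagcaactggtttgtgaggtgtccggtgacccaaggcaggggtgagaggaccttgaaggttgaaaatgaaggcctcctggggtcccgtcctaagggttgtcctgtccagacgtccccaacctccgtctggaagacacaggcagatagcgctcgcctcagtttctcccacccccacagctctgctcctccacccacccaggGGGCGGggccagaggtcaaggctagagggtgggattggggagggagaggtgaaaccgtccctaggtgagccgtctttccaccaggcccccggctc
Nr0b1: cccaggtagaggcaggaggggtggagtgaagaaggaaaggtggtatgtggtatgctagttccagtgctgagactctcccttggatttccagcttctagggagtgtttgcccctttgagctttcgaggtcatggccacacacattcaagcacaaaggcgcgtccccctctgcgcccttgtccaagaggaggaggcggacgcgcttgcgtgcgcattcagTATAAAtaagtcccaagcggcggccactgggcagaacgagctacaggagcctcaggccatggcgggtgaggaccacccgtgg
Utf1: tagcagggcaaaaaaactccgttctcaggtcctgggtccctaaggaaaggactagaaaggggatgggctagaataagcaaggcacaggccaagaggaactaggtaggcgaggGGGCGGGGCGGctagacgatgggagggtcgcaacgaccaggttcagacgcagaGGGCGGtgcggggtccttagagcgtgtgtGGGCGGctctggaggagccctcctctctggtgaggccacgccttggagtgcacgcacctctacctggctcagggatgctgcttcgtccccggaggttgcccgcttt
Fgf4: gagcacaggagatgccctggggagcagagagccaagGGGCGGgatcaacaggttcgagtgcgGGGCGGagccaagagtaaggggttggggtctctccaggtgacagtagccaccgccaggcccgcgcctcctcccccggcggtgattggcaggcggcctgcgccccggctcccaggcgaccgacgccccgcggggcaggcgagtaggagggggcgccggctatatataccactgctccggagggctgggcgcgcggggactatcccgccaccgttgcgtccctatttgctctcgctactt

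The octamer was in none of the 7 windows (0 matches), against 1.74% of all 32851 promoter windows of the same length. The nuclear receptor site was also in none of them (0 matches), against 0.423% of all windows. GC boxes stood in the windows of 3 genes, with 1 match in Pou5f1, 4 in Utf1, of which a pair overlaps by its end bases, and 2 in Fgf4, against 35.7% of all windows. Nr0b1 was the 1 gene with the letters TATAAA, at positions -32 to -27 from its start, a motif in 13.6% of all windows. Variant letters of the TATA box, such as tatatata in the Fgf4 window, were not searched for. The SOX site was in windows of 2 genes, against 12.6% of all windows. It stood in 1 of the 2 Pou5f1 windows, a second start not shown above. It also stood in 1 of the 2 Esrrb windows, at positions 33 to 38 after the start. The GC, TATA and SOX counts are of genes, whereas the shares are of single windows. A match or its absence describes these letters in this window and says nothing of binding.

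Fibroblast markers were mostly lower on the iNSC and NSC arrays than on the MEF arrays, whereas neural stem cell markers had no common direction. Of 15 fibroblast markers, 14 were lower and 1 higher in iNSC than in MEF, and 15 of 15 lower in NSC than in MEF. Sox2, a factor of both neural and pluripotent stem cells, averaged 4.56 ± 0.057 on iNSC1 arrays, 4.42 ± 0.091 on iNSC2 arrays, 4.58 ± 0.12 on NSC arrays and 4.502 ± 0.046 on MEF arrays (log2 RMA, SD, n = 3 arrays each). Of 15 neural stem cell markers, 0 were higher and 3 lower in iNSC than in MEF, and 3 were higher and 2 lower in NSC than in MEF, by limma with an adjusted p under 0.05 and a change of at least 2-fold. Over all genes, 8.2% were higher and 10.9% lower in iNSC, and 8.72% higher and 9.95% lower in NSC. At an unadjusted p under 0.05, 6 of the 15 were higher and 3 lower in iNSC than in MEF, against 31.6% and 27.8% of all genes. The groups are therefore called by their labels only. Arrays of 1 group correlated at 0.987 to 0.994 across genes.

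Across the 10 genes, 8 were at least 2-fold higher in iNSC than in MEF, 6 in NSC than in MEF, and 2 higher and 1 lower in iNSC than in NSC. For comparison, 8.2% of all 17103 genes were called higher in iNSC than in MEF, 8.72% higher in NSC than in MEF, and 2.91% higher and 3.64% lower in iNSC than in NSC. Because the genes were picked from these same values, nothing is read from the counts. The median difference of the 10 genes was 2.74 in iNSC minus MEF, 2.67 in NSC minus MEF and -0.043 in iNSC minus NSC, on the log2 scale. The medians over all genes were 0.061, 0.045 and 0.0080 for the same comparisons. The genes fell into 4 patterns: high in every group but MEF (Pou5f1, Fgf4, Sall4, Tdh, Fbxo15), high in iNSC (Gdf3, Utf1), highest in NSC (Nr0b1), and near 1 level in all groups (Esrrb, Dppa4).

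**Figure D1:**
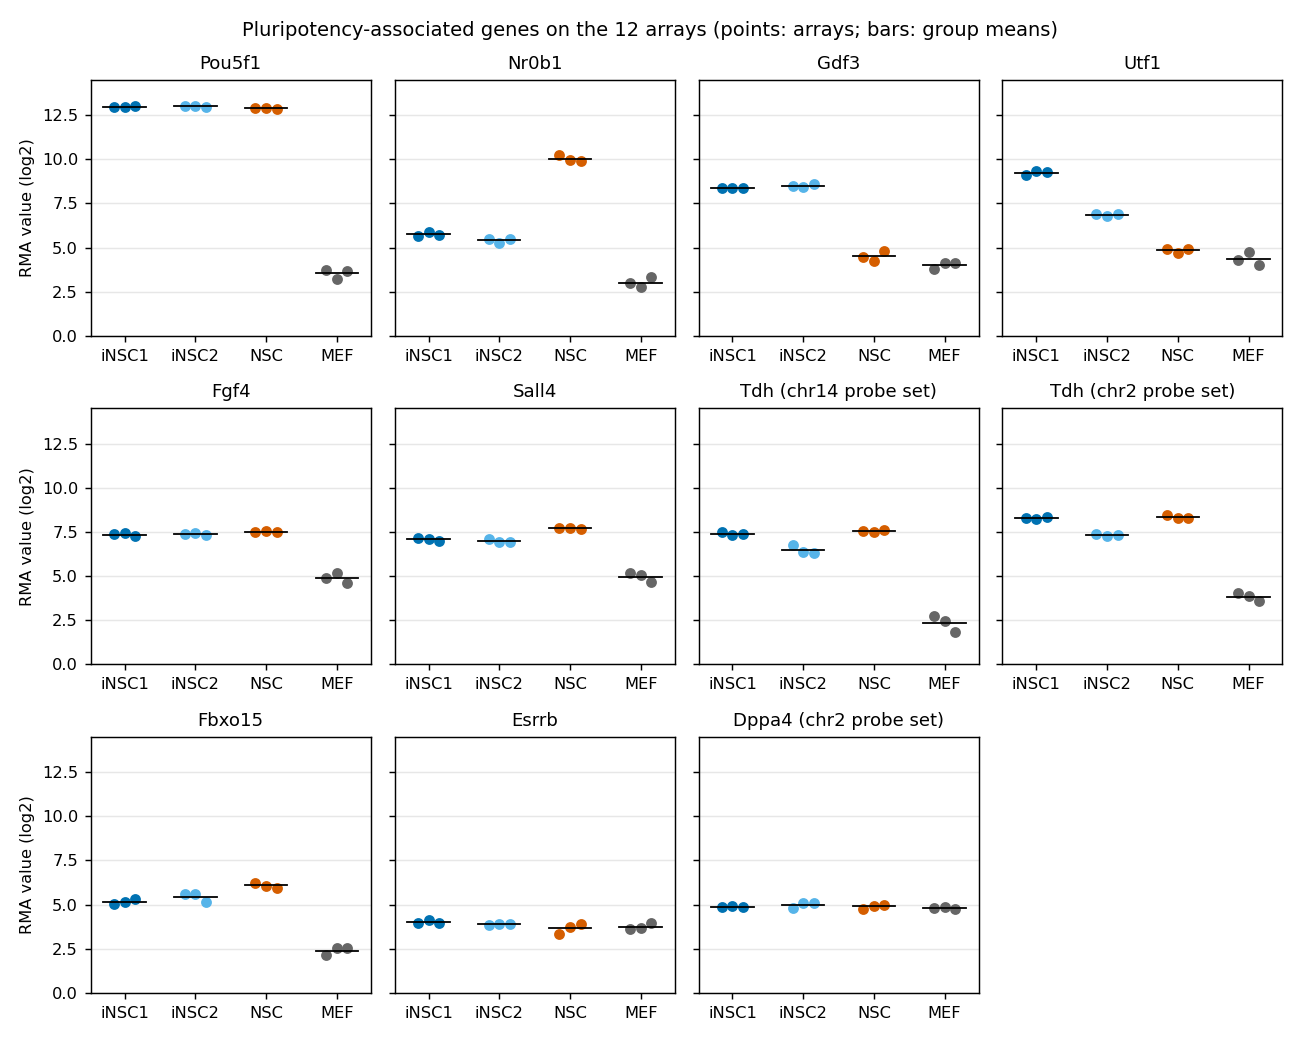
Log2 RMA value (y axis, the same range in every panel) of each array for the 11 probe sets of the 10 genes, by group; bars are group means of 3 arrays. Pou5f1 lay between 12.865 and 13.029 on the 9 iNSC and NSC arrays and between 3.243 and 3.725 on the MEF arrays, while Gdf3 and Utf1 were high in iNSC and Nr0b1 in NSC.

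Pou5f1 encodes the POU-domain factor at the centre of the network. It read 12.969, 12.955 and 13.004 on the iNSC1 arrays, 13.029, 13.023 and 12.969 on the iNSC2 arrays and 12.905, 12.888 and 12.865 on the NSC arrays, against 3.725, 3.243 and 3.666 on the MEF arrays. The 9 iNSC and NSC arrays lay close together and far above every MEF array. The difference from MEF was 9.45 ± 0.078 (SE) for iNSC and 9.34 ± 0.090 for NSC on the log2 scale, or 698-fold and 649-fold. Between iNSC and NSC it was 0.11 (95% confidence interval -0.060 to 0.27), and between iNSC1 and iNSC2 -0.031 (-0.22 to 0.16). In order of level the groups ran iNSC2, iNSC1, NSC, MEF. The arrays of the first 2 overlapped, and those of iNSC1 and NSC did not, although their means differed by only 0.090. No probe set has a detection call, and a reading as low as that of MEF can be background, so each fold against MEF is a ratio of readings. In cultures measured in bulk, fewer expressing cells and less RNA per cell cannot be told apart.

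Fgf4, the fibroblast growth factor secreted by the inner cell mass, read 7.380, 7.419 and 7.252 on iNSC1 arrays, 7.404, 7.425 and 7.302 on iNSC2 arrays and 7.476, 7.542 and 7.481 on NSC arrays, against 4.885, 5.183 and 4.619 on MEF arrays. The iNSC1 and iNSC2 arrays overlapped, NSC lay just above both, and MEF lay apart below. The difference was 2.47 ± 0.10 for iNSC minus MEF and 2.604 ± 0.12 for NSC minus MEF (log2, SE). For iNSC minus NSC it was -0.14 (95% confidence interval -0.35 to 0.078).

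Sall4, a zinc-finger factor that partners Pou5f1 and is also active in germ cells, read 7.141, 7.075 and 7.010 on iNSC1 arrays, 7.120, 6.904 and 6.940 on iNSC2 arrays and 7.711, 7.738 and 7.672 on NSC arrays, against 5.173, 5.084 and 4.662 on MEF arrays. The 6 iNSC arrays overlapped between sets and stood below all NSC arrays. The iNSC minus NSC difference was -0.68 ± 0.10, beside 2.06 ± 0.10 for iNSC minus MEF and 2.73 ± 0.12 for NSC minus MEF (log2, SE).

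Tdh encodes threonine dehydrogenase, the mitochondrial enzyme that starts threonine breakdown and on which mouse embryonic stem cells depend. Of its 2 probe sets, the authors' table places 1 on chromosome 14 (64111184 to 64127929, minus strand), the chromosome of the gene in RefSeq, and the other on chromosome 2 (111840340 to 111841461, plus strand), in a build that the files leave unnamed. The chromosome 14 probe set read 7.503, 7.304 and 7.385 on iNSC1 arrays, 6.771, 6.362 and 6.293 on iNSC2 arrays and 7.569, 7.479 and 7.581 on NSC arrays, against 2.715, 2.446 and 1.842 on MEF arrays. NSC and iNSC1 overlapped, and iNSC2 lay below both and far above MEF. The iNSC1 minus iNSC2 difference was 0.92 ± 0.17 and the iNSC2 minus NSC difference -1.07 ± 0.17, whereas iNSC1 minus NSC was -0.15 (95% confidence interval -0.51 to 0.22). The chromosome 2 probe set, fitted with every probe set kept, gave the same order, with iNSC1 minus iNSC2 at 0.96 ± 0.11 and iNSC2 minus NSC at -1.03 ± 0.11. Its differences from MEF were smaller, 3.98 ± 0.091 for iNSC and 4.53 ± 0.11 for NSC, against 4.602 ± 0.15 and 5.21 ± 0.17 from the chromosome 14 probe set. Whether the 2 read each other's transcripts was not tested, so they are not counted as independent measurements.

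Gcat encodes the ligase that takes the product of Tdh in the next step of threonine breakdown, and is not one of the 10 genes. It read 7.833, 8.075 and 7.748 on iNSC1 arrays, 7.732, 7.537 and 7.563 on iNSC2 arrays and 7.442, 7.465 and 7.805 on NSC arrays, against 5.399, 5.583 and 5.597 on MEF arrays. Gcat was higher in iNSC than in MEF by 2.22 ± 0.099 (limma adjusted p = 1.64e-12) and in NSC than in MEF by 2.04 ± 0.11 (limma adjusted p = 5.67e-11). Unlike those of Tdh, its iNSC2 arrays lay within the range of the NSC arrays, and iNSC1 minus iNSC2 was 0.27 ± 0.11 (limma adjusted p = 0.339).

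Fbxo15, an F-box protein of the ubiquitin ligase system whose locus has long served as a reporter of the embryonic stem cell state, read 5.020, 5.160 and 5.290 on iNSC1 arrays, 5.616, 5.588 and 5.117 on iNSC2 arrays and 6.213, 6.063 and 5.962 on NSC arrays, against 2.135, 2.524 and 2.519 on MEF arrays. The iNSC2 and iNSC1 arrays overlapped, NSC lay above both and MEF below all. The iNSC minus NSC difference was -0.78 ± 0.13, against 2.91 ± 0.13 for iNSC minus MEF and 3.69 ± 0.15 for NSC minus MEF (log2, SE). Sall4 and Fbxo15 thus read lower in iNSC than in NSC by less than 2-fold.

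Gdf3 and Utf1 were high in the iNSC arrays and close to the MEF level in the NSC arrays. Gdf3, a TGF-beta family ligand of pluripotent cells, read 8.378, 8.399 and 8.356 in iNSC1 and 8.508, 8.421 and 8.602 in iNSC2, against 4.458, 4.251 and 4.822 in NSC and 3.805, 4.130 and 4.119 in MEF. No array of 1 group overlapped a neighbouring group in the order iNSC2, iNSC1, NSC, MEF, but only the step between iNSC1 and NSC was large. The iNSC minus NSC difference was 3.93 ± 0.11 (15.3-fold, a ratio to NSC readings that can be background), and NSC minus MEF was 0.49 ± 0.13 (log2, SE). Between iNSC1 and iNSC2 it was -0.13 (95% confidence interval -0.41 to 0.14).

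Utf1, a chromatin-bound protein of undifferentiated embryonic cells, read 9.114, 9.335 and 9.289 in iNSC1 and 6.920, 6.763 and 6.914 in iNSC2, against 4.943, 4.719 and 4.950 in NSC and 4.324, 4.739 and 3.995 in MEF. The levels stepped down from iNSC1 to iNSC2 to NSC without overlap, and the NSC and MEF arrays overlapped. Of the 10 genes, Utf1 was the 1 past 2-fold between the iNSC sets with all arrays; Tdh passed it too without iNSC2 replicate 1 (1.07). Over all 17103 genes 0.152% were called there in either direction, and nothing is read from that share for genes picked on these values. The iNSC1 minus iNSC2 difference was 2.38 ± 0.15 (5.21-fold). Against NSC it was 4.38 ± 0.15 for iNSC1 and 1.995 ± 0.15 for iNSC2, and against MEF 4.89 ± 0.15 and 2.51 ± 0.15 (log2, SE). The mean over both iNSC sets describes neither of them for this gene.

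Nr0b1 (Dax1), a nuclear receptor without known ligand, found in adrenal, gonad and embryonic stem cells, that can repress other factors, had its highest readings in NSC. It read 5.643, 5.889 and 5.700 on iNSC1 arrays, 5.484, 5.289 and 5.515 on iNSC2 arrays and 10.217, 9.957 and 9.898 on NSC arrays, against 2.996, 2.750 and 3.320 on MEF arrays. The groups ran NSC, iNSC1, iNSC2, MEF with no overlap between neighbours, so the iNSC arrays stood between NSC and MEF. The iNSC minus NSC difference was -4.44 ± 0.12 (21.7-fold lower in iNSC), beside 2.56 ± 0.12 for iNSC minus MEF and 7.002 ± 0.14 for NSC minus MEF (log2, SE). Between the iNSC sets it was 0.31 (95% confidence interval 0.026 to 0.60).

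Esrrb and Dppa4 showed no difference near 2-fold in any comparison. Esrrb, an orphan nuclear receptor that sustains self-renewal of mouse embryonic stem cells, read 3.972, 4.147 and 3.980 on iNSC1 arrays, 3.816, 3.902 and 3.918 on iNSC2 arrays and 3.361, 3.731 and 3.918 on NSC arrays, against 3.612, 3.683 and 3.970 on MEF arrays. Its arrays overlapped between iNSC2 and MEF and between MEF and NSC, and NSC minus MEF was -0.085 (95% confidence interval -0.39 to 0.22). Dppa4, a nuclear protein of early embryo and germ cells, had 1 probe set, which the authors' table places on chromosome 2 (122040356 to 122041090, minus strand), whereas RefSeq places the gene on chromosome 16. It averaged 4.89 ± 0.044 on iNSC1 arrays, 4.99 ± 0.16 on iNSC2 arrays and 4.89 ± 0.12 on NSC arrays, against 4.81 ± 0.061 on MEF arrays (SD, n = 3 each), and every neighbouring pair of groups overlapped. What the probes of this set bind was not tested, so the readings are no sure measure of the gene on chromosome 16. Across the annotation, 563 of 17520 probe sets matched to RefSeq were placed on another chromosome than their gene.

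**Figure D2:**
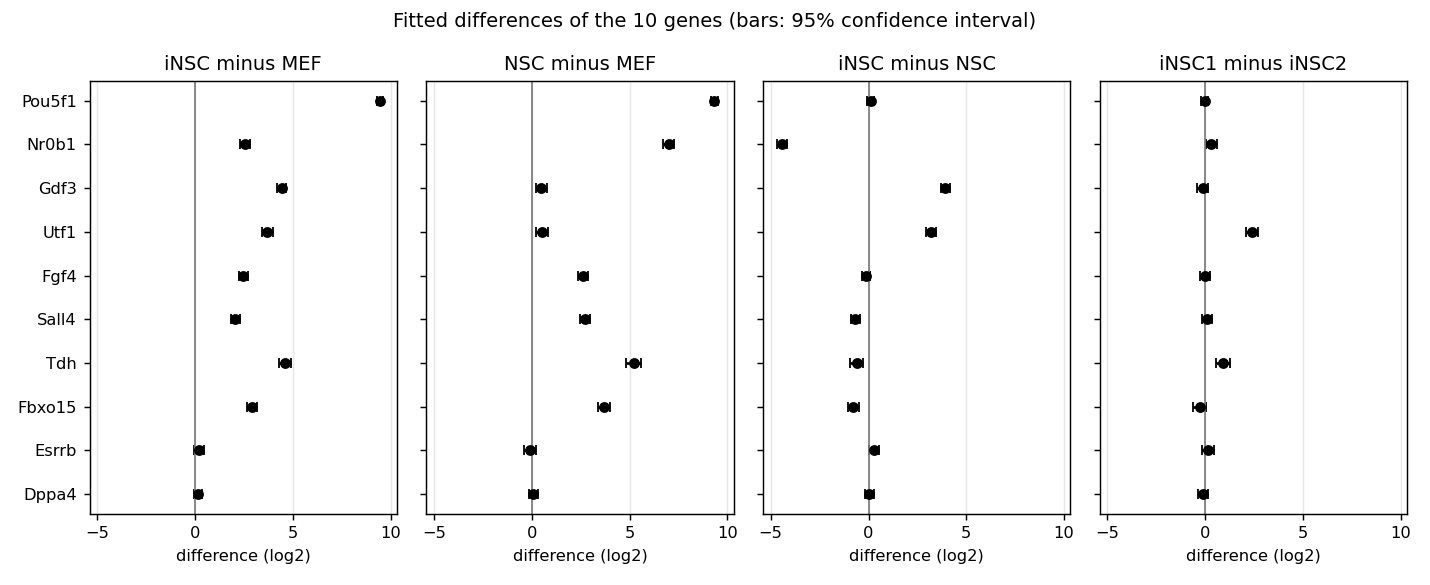
Fitted log2 differences (x axis) of the 10 genes, 1 panel per comparison, with 95% confidence intervals from the fit over 12 arrays. Pou5f1 stands at 9.45 and 9.34 against MEF and near 0 between iNSC and NSC, where Nr0b1 (-4.44), Gdf3 (3.93) and Utf1 (3.19) lie apart; between the iNSC sets Utf1 stands at 2.38 and Tdh at 0.92.

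The rest of the network was followed with 63 genes from 3 lists, none of them among the 10, of which 58 had a probe set with their symbol alone. Nanog, Zfp42, Zscan4c, Dppa2 and Tcl1 had no such probe set and were not analysed here. In iNSC, 9 of the 58 were higher and 6 lower than in MEF, against 8.2% and 10.9% of all genes. In NSC, 17 were higher and 6 lower than in MEF, against 8.72% and 9.95% of all genes. Between iNSC and NSC, 2 were higher and 10 lower in iNSC, against 2.91% and 3.64% of all genes. The median difference of the 58 was 0.20 in iNSC minus MEF, 0.25 in NSC minus MEF and -0.20 in iNSC minus NSC. The comparisons share arrays, so their counts are not independent of each other. These lists and those below were chosen with earlier results of these data known, so no enrichment is read from the counts.

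Among the other transcription factors, Mybl2, a cell cycle regulator of embryonic stem cells, rose in both: it averaged 8.203 ± 0.16 in iNSC (SD, n = 6) and, over 3 arrays each, 7.76 ± 0.094 in NSC and 5.36 ± 0.097 in MEF. Its difference from MEF was 2.84 in iNSC (limma adjusted p = 1.58e-15) and 2.405 in NSC (limma adjusted p = 1.82e-13). Zfp296, a zinc-finger partner of Klf4 in mouse cells, was higher by 1.11 in iNSC and 1.38 in NSC; the iNSC call ended without MEF replicate 1 (0.96). Tbx3, a T-box factor, fell in both, with differences from MEF of -1.402 in iNSC and -1.21 in NSC. Klf4, a reprogramming factor, was 0.87 above MEF and 0.98 above NSC in iNSC and was not called, but the difference from NSC reached 2-fold with arrays centred on their medians (1.03) and without iNSC1 replicate 1, iNSC2 replicate 2, NSC replicate 1 or NSC replicate 3 (1.005 to 1.09), and that from MEF did so without MEF replicate 3 (1.002). For iNSC1 alone, Klf4 was called higher than in NSC (1.11, limma adjusted p = 1.3e-06). Sox2 differed from MEF by -0.011 in iNSC and 0.077 in NSC, and Lin28a, an RNA-binding repressor of let-7, by 0.15 and 0.054, with limma adjusted p from 0.213 to 0.932.

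Signalling genes moved in both directions. Lifr, the receptor for LIF, the cytokine that keeps mouse embryonic stem cells undifferentiated, was higher by 1.08 in iNSC and 2.24 in NSC than in MEF (limma adjusted p = 8.07e-07 and 4.63e-10). Il6st, its co-receptor gp130, was lower by about the same amount in each, at -2.27 in iNSC and -2.26 in NSC. Lif itself was lower in iNSC, at 3.77 ± 0.29 in iNSC1 and 3.71 ± 0.14 in iNSC2 against 5.199 ± 0.076 in NSC (SD, n = 3 each; difference from NSC -1.46, limma adjusted p = 8.46e-08). Socs3, a feedback inhibitor of LIF signalling, was also lower in iNSC than in NSC (-1.28), a call that ended when its probe sets were averaged (-0.66). Pim1, a kinase induced by LIF and other cytokines, was higher by 1.31 in iNSC and 1.78 in NSC than in MEF.

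Dusp6 and Spry4, feedback inhibitors of the FGF and ERK pathway through which Fgf4 acts, were lower in iNSC than in NSC, with differences of -1.704 (limma adjusted p = 1.87e-11) and -1.07 (limma adjusted p = 1.68e-08). Dusp6 averaged 7.37 ± 0.053 on iNSC1 arrays, 7.42 ± 0.19 on iNSC2 arrays and 9.099 ± 0.074 on NSC arrays, against 8.23 ± 0.11 on MEF arrays (SD, n = 3 each), so NSC lay above MEF and iNSC below it. Fgf4 itself differed by -0.14 between iNSC and NSC. Of the FGF receptors, Fgfr2 fell against MEF in both (-1.29 in iNSC and -1.41 in NSC), and Fgfr1 fell in NSC (-1.48). Fgfr1 was also lower in iNSC than in MEF, by less than 2-fold (-0.67, limma adjusted p = 2.59e-07). Eras, a Ras protein of embryonic stem cells, was higher in NSC than in MEF by 1.31 (limma adjusted p = 1.34e-06) and differed by 0.081 between iNSC and MEF. Its means of 3.97 in NSC and 2.66 in MEF lie below the array medians (4.31 to 4.44) and can be background. Bmp4, a ligand that acts with LIF, fell in both (-1.61 in iNSC and -1.29 in NSC). Tdgf1, the Nodal co-receptor Cripto, differed from MEF by -0.49 in iNSC and -0.29 in NSC and was not called.

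Of the RNA, chromatin and surface genes of the network, 5 of 25 were higher in iNSC and 9 of 25 in NSC than in MEF, against 8.2% and 8.72% of all genes; the lists were not tested against each other. Slc2a3, a glucose transporter, rose by 3.38 in iNSC (limma adjusted p = 1.06e-14) and by 2.71 in NSC (limma adjusted p = 2.6e-12). L1td1, an RNA-binding protein of pluripotent cells, rose by 2.04 in iNSC and by 2.09 in NSC. Jarid2, a partner of the Polycomb complex, was higher in NSC than in MEF by 1.89 and lower in iNSC than in NSC (-1.504, limma adjusted p = 5.25e-09). Upp1, a uridine phosphorylase, read 6.217, 6.108 and 6.008 in NSC and between 3.833 and 4.286 on the 6 iNSC arrays, with MEF at 3.981, 3.725 and 3.482; iNSC minus NSC was -2.04 (limma adjusted p = 1.86e-10). Pecam1, an adhesion molecule of endothelium and of mouse embryonic stem cells, was likewise highest in NSC, with iNSC minus NSC at -1.48 (limma adjusted p = 6.63e-09). Rif1, a telomere and replication timing factor, rose by 1.52 in NSC. Lin28b, a relative of Lin28a named after its value was seen, was 1.14 higher in iNSC than in NSC (limma adjusted p = 1.25e-06). Rif1 averaged 3.69 in NSC and 2.16 in MEF, and Lin28b 4.08 in iNSC and 2.94 in NSC. These means lie below the array medians (4.31 to 4.44) and can be background.

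**Figure D3:**
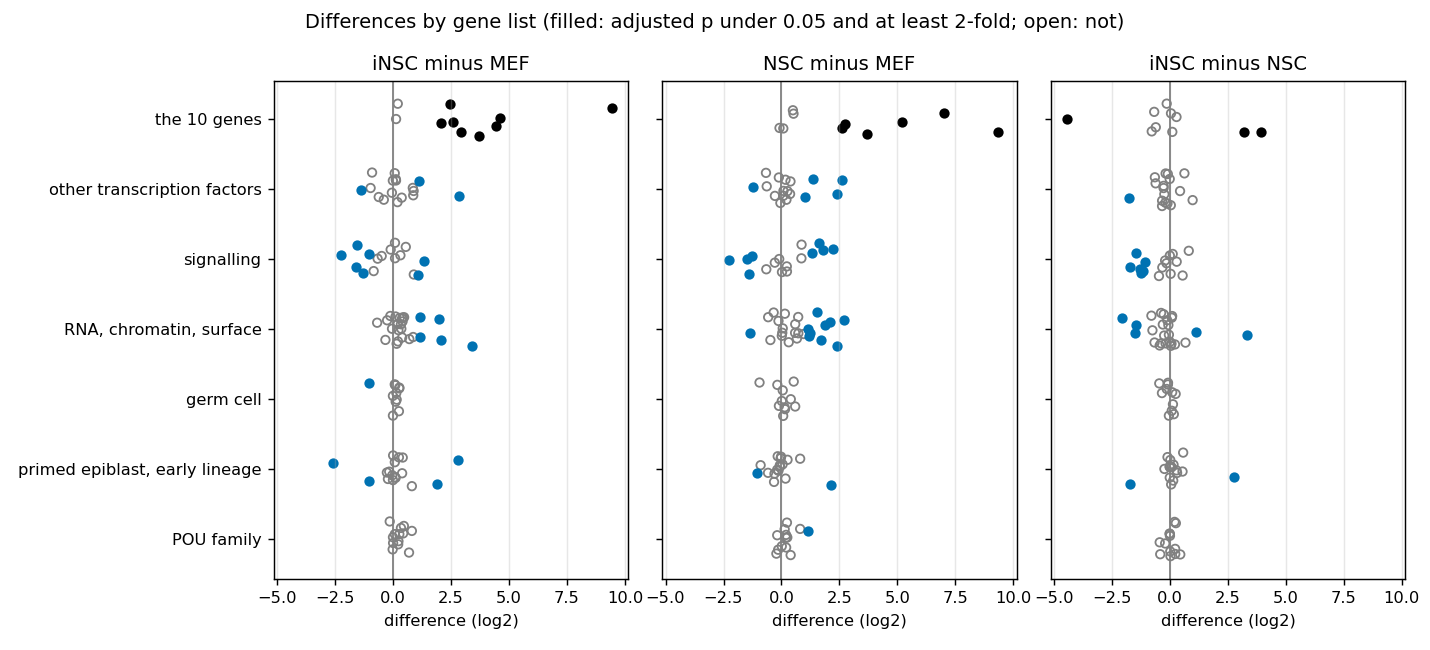
Fitted log2 differences (x axis) of single genes in 7 lists, 1 panel per comparison, with each list on its own row. Filled points have an adjusted p under 0.05 and at least a 2-fold change. The same rule fills the points of the 10 genes (black), but these were picked from the same values, so their fill is not read as a test. The germ cell and POU family rows hold 1 filled point each, Gfra1 (-1.03, iNSC minus MEF) and Pou2f1 (1.12, NSC minus MEF). Over all genes, 10.9% were lower in iNSC minus MEF and 8.72% higher in NSC minus MEF. The filled signalling points of iNSC minus NSC are all below 0 (6 of 16 genes), against 3.64% of all genes lower and 2.91% higher.

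Pou5f1 is also active in germ cells and in the primed epiblast, and has close relatives in the nervous system, so these lists were read as well. Of 20 germ cell genes 11 were measured. By limma under the 2-fold rule, 0 were higher in iNSC or NSC than in MEF, against 8.2% and 8.72% of all genes. In iNSC 1 was lower, Gfra1 (-1.03, named after its value was seen), against 10.9% of all genes. At an unadjusted p under 0.05, 2 were higher in iNSC and 3 in NSC, against 31.6% and 30.1% of all genes. Kit, a receptor of germ cells and other progenitors, differed from MEF by 0.25 in iNSC and 0.59 in NSC. Ddx4, Dazl, Mael and 6 others of the list had no probe set with their symbol alone and were not analysed here.

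Of 17 measured primed epiblast and early lineage genes, 2 were higher and 2 lower in iNSC than in MEF, against 8.2% and 10.9% of all genes, and 1 higher and 1 lower in NSC, against 8.72% and 9.95%. Eomes, a T-box factor of trophoblast, mesendoderm and cortical progenitors, read 7.284, 7.266 and 7.205 in iNSC1 and 6.884, 7.095 and 6.455 in iNSC2, against 4.203, 4.221 and 4.412 in NSC and 4.126, 4.115 and 4.448 in MEF. Like Gdf3 it was high on all iNSC arrays, with iNSC minus NSC at 2.75 ± 0.12 (limma adjusted p = 6.9e-12). Gata3, a factor of trophoblast and other epithelia, was higher by 1.895 in iNSC and by 2.13 in NSC than in MEF. Dab2, an endocytic adaptor of primitive endoderm also found in fibroblasts, was lower in iNSC than in MEF (-2.61) and than in NSC (-1.71). Fgf5 and Otx2, which mark the primed epiblast, differed from MEF by -0.22 and -0.0065 in iNSC and by -0.30 and -0.063 in NSC.

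Of the 13 other POU genes measured, 0 were called in iNSC minus MEF by limma under the 2-fold rule. In NSC minus MEF 1 was called, Pou2f1 (Oct1, 1.12, named after its value was seen). Over all genes, 8.2% were higher and 10.9% lower in iNSC minus MEF, and 8.72% and 9.95% in NSC minus MEF. At an unadjusted p under 0.05, 5 of 13 were higher in iNSC and 3 of 13 in NSC than in MEF, against 31.6% and 30.1% of all genes. In iNSC, the differences from MEF were 0.81 for Pou3f1 (Oct6; limma adjusted p = 1.97e-06) and 0.69 for Pou2f1, and 0.46 and 0.43 for Pou3f4 (Brn4) and Pou3f2 (Brn2), POU factors of neural progenitors. The Pou5f1 reading was thus not accompanied by a difference of that size in its measured relatives. Of 17 measured relatives and partners of the other 9 genes, Gcat was the 1 called in iNSC minus MEF, against 8.2% of all genes higher. Gcat and Sall1 were the 2 called in NSC minus MEF, against 8.72% of all genes higher, and Sall1 was 1.02 higher there.

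The genes nearest to 3 of the patterns were ranked by root mean square distance over the 12 arrays, between log2 values centred on each gene's mean. The 10 genes themselves were left out of the ranking, and so were gene models without a proper name (Riken, Gm, LOC or accession-like symbols). Such a model may lie nearer than the genes listed. Nearest to Pou5f1 were Atp2a3 (1.57), which pumps calcium into the endoplasmic reticulum, Stmn2 (2.097), a microtubule regulator of neurons, Slc35f2 (2.16), Cpm (2.18), a carboxypeptidase, and Mpzl2 (2.18), an adhesion molecule. Of the 10 genes, Tdh was nearest to Pou5f1 (2.06), closer than the last 4 of these. All 5 had a smaller step than Pou5f1: Atp2a3 averaged 10.44 on iNSC1 arrays, 10.37 on iNSC2 arrays and 9.72 on NSC arrays, against 4.35 on MEF arrays. Nearest to Nr0b1 were Enpp3 (0.66), an ectonucleotidase, Gpx6 (0.66), a glutathione peroxidase, Trh (1.001), the thyrotropin-releasing hormone precursor, Fetub (1.01), a protease inhibitor, and Slc7a3 (1.03), a cationic amino acid transporter. Gpx6 averaged 3.98 on iNSC1 arrays, 4.29 on iNSC2 arrays and 8.73 on NSC arrays, against 3.02 on MEF arrays.

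The profiles nearest to Gdf3 were closer than those of the other 2. They were Sfn (0.22), the 14-3-3 protein sigma of epithelial cells, Crmp1 (0.25), a neuronal cytoskeletal regulator, Lypd2 (0.27), Elovl7 (0.28), a fatty acid elongase, and Krt13 (0.32), a keratin of stratified epithelium. Sfn averaged 10.22 ± 0.060 in iNSC1 and 10.34 ± 0.11 in iNSC2, against 5.91 ± 0.22 in NSC and 5.85 ± 0.18 in MEF (SD, n = 3 each). Utf1, the nearest of the 10 genes to Gdf3, stood farther off (0.98).

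**Figure D4:**
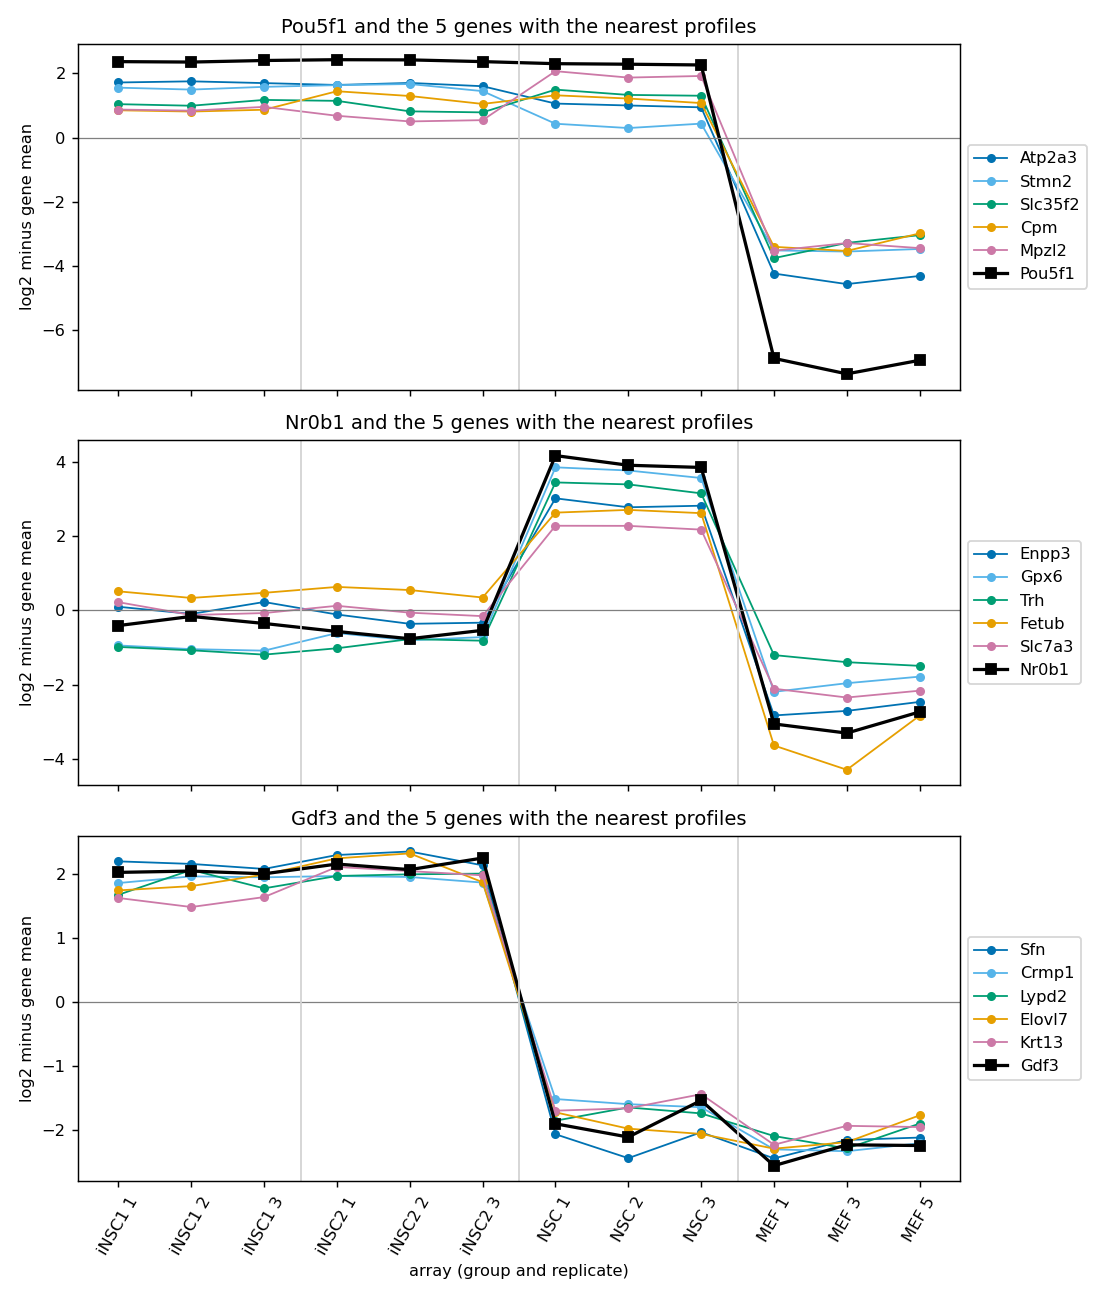
Log2 value minus the gene's mean over 12 arrays (y axis) on each array (x axis) for Pou5f1, Nr0b1 and Gdf3 (black squares) and the 5 genes nearest to each, among those ranked. The Gdf3 neighbours follow it within 0.22 to 0.32 (root mean square), whereas those of Pou5f1 share its step between MEF and the other groups at a smaller size (1.57 to 2.18).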

How the data were processed

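The authors' deposited values are log2 intensities, which the submitters' processing notes credit to RMA and Affymetrix Power Tools without a version; no source used here names a genome build. Another deposited table holds symbols, positions, the authors' log2 ratios and adjusted p-values, per the file headers, for 21774 of 28815 probe sets, those with a highest group mean above 3. It has 9 per-array columns that matched a title and equalled the main table (largest difference 0); 3 others, in the places of iNSC2, have names that do not pair with the titles and were not used, so the replicate numbers within iNSC2 are uncertain wherever a single iNSC2 array or the replicate block is named. Symbols were updated through Entrez (17520 of 18403 matched), and among several probe sets of a gene the one on its RefSeq chromosome, then the highest mean, was kept (17103 genes). limma 3.58.1 (R 4.3.3), tested on simulated data, fitted 4 group means with a trended spread over 12 arrays; iNSC is the mean of both sets. A call needs at least a 2-fold change and, two-sided, a p under 0.05 after Benjamini-Hochberg adjustment across the whole table. Replicates are not stated to be separate cultures, so p-values measure the spread between arrays, whose number limits precision.

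The genes and lists were chosen with earlier results of these data known. Named were the 10 genes, 6 fixed network genes, the 25 list genes with the largest called differences, and the 5 nearest profiles of Pou5f1, Nr0b1 and Gdf3; Gcat, Sall1, Kit, Fgf5, Otx2, Pou3f1, Pou3f2, Pou3f4, Gfra1, Pou2f1, Lin28b and Tcf7l1 were added outside this rule. Of the 25, 2 are not reported here. Same-numbered arrays of different groups deviated together in 6 of 15 pairs (correlation above 0.1). That share was not set against pairs with different numbers, so it does not settle pairing. The main fit took the arrays as unpaired.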

Additional observations from a re-analysis of the deposited data

How the results depend on the processing

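Without a fold minimum, 9536 genes were called in iNSC minus MEF (3261 with it), 8862 in NSC minus MEF (3193), 6098 in iNSC minus NSC (1120) and 391 in iNSC1 minus iNSC2 (26). The network genes called higher and lower were then 24 and 15, 28 and 13, and 8 and 24 in the first 3 comparisons, and 2 were lower in iNSC1 than in iNSC2, where limma called 0 with the minimum and 13 passed an unadjusted p under 0.05 (9 higher, 4 lower). With a highest group mean of at least 6, 3 network genes were lower in iNSC minus MEF and 1 higher in iNSC minus NSC. Fgfr2, Lif and Tbx3 in the former and Lin28b in the latter fell below that level and were no longer tested. Leaving out 1 array at a time gave 3203 to 3417, 3105 to 3291, 1078 to 1211 and 22 to 34 calls, and 0 to 1 network genes lower in iNSC1 than in iNSC2, the 1 being Tcf7l1 without iNSC1 replicate 1 (-1.06). Small list counts moved too: 0 germ cell genes were lower in iNSC minus MEF without iNSC2 replicate 3 or MEF replicate 1, and without MEF replicate 5 there were 1 germ cell gene lower in NSC minus MEF and 1 and 0 early lineage genes lower in iNSC and NSC minus MEF. With arrays centred on their medians 1 germ cell gene was lower in NSC minus MEF. The cause was not tested. Calls of single genes that ended were Lifr in iNSC minus NSC without NSC replicate 1 (-0.98), Socs3 in iNSC minus MEF without MEF replicate 5 (-0.95) and with averaged probe sets (-0.49), and those named above.

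With the replicate number as a block, calls were 3450, 3315, 1120 and 27; network counts in iNSC minus MEF were 11 and 5, and the Socs3 call there ended (-0.93). The numbers are shared, but whether they pair arrays was not settled (6 of 15 same-numbered pairs above 0.1). Arrays listed last in their groups deviated together in some pairs (0.278 for iNSC2 3 with NSC 3, 0.272 for NSC 3 with MEF 5). Others did not (-0.069 for iNSC1 3 with NSC 3). MEF replicate 5 is alone in its block, so that fit draws the MEF comparisons from the other MEF arrays only. The probe set with the highest mean, an alternative chosen after seeing the data, changed Tdh to 3.98 against MEF in iNSC and 4.53 in NSC. Of 782 recomputed differences of the 10 genes, 772 moved by less than 1 SD and 10 moved by more. Where the main difference was at least 2-fold, 0 changed sign. Many of the 782 could not move. A fit without trend, or without an array of a group outside the comparison, leaves a difference unchanged. The authors' ratios come from the same group means (largest gap 0.0007). These counts are therefore no measure of stability. The authors' ratio of iNSC1 against iNSC2 is rounded to whole numbers and gave no count. Depth does not apply to arrays, and a fold against MEF is limited wherever either group reads near background.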
